A study of Mus musculus with 3 samples.

Results

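The 10 genes described here are immediate early genes, the transcripts that a cell makes within minutes of a stimulus without first making new protein. They were chosen by symbol from the 32285 genes of the count tables: Fos, Fosb, Jun, Junb and Atf3, which encode partners in AP-1-type leucine zipper dimers; Egr1, a zinc-finger transcription factor; Ier2 and Ier3, 2 short response proteins; and Btg2 and Dusp1, which act in negative feedback. The cells were mononuclear isolates of mouse costal diaphragm from 3 groups, each profiled as 1 library of 2 pooled male mice: wild-type (WT) C57Bl/6J mice on control diet (CD), WT mice on high-fat diet (HFD, 45% of energy from fat) and HFD-fed knockout (KO) mice that carry the B6.129S2-Thbs1tm1Hyn/J allele in all cells. Diets ran for 6 months, and all isolates were made on the same day by collagenase digestion with exclusion of dead cells. With 1 library per group there was no replicate of diet or genotype, the KO strain and the genotype cannot be told apart, and differences between groups carry no p-value.

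Immediate early genes sit downstream of the MAP kinase cascade, serum response factor and CREB, which are already present in resting cells, so their transcripts rise quickly and decay quickly. Fos and Jun family proteins pair to form AP-1, and Dusp1, a phosphatase of MAP kinases, closes the loop by switching the kinases off. Enzymatic digestion of muscle is known to induce these genes while the cells are being isolated. No cells fixed before digestion were part of these data, so transcripts made in the tissue and transcripts made during isolation cannot be told apart in any value below.

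The libraries held 4132 cells with 34312860 UMIs (unique molecular identifiers, each counting 1 captured transcript) in WT CD, 3774 cells with 31967976 UMIs in WT HFD and 4369 cells with 36478779 UMIs in KO HFD. The median depth was 7632, 8042 and 7554 UMIs per cell, and the libraries shared 7, 7 and 2 barcodes pairwise. Thbs1 itself was read at 136, 202 and 163.4 counts per 1000000 UMIs (CPM) in WT CD, WT HFD and KO HFD, and since 3′ counts do not read the deleted part of the gene, this neither checks nor contradicts the KO label. Clustering gave 30 clusters, of which 28 were named from marker genes into 17 classes. The fibro-adipogenic progenitors (FAPs, the stromal progenitors of muscle, marked by Pdgfra, Pdgfrb, Dcn and Osr1) made up 6648 of 12275 cells, and muscle stem cells (MuSCs, marked by Pax7, Myf5 and Cdh15) 1215. The 10 genes and 4 lists of response genes (other immediate early, feedback, heat shock and delayed genes) were held out of the genes used for clustering, so their levels did not place the cells. Classes were named from markers, with limits on depth, and FAPs, B cells, T or NK cells and the others are to be read as cells like these.

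Promoter sequence is shown for 4 members that went different ways between the classes below: Fos, the AP-1 subunit; Btg2 and Dusp1, both feedback genes; and Ier3. RefSeq windows on GRCm38.p6, running from 250 bases before to 50 after a gene's RefSeq start, were available for 8 of the 10 members. Egr1 and Ier2 are named only. The window of Dusp1 lies inside the wider gene range printed below, which has another start. The genes lie on chromosome 12 (Fos, ENSMUSG00000021250, chr12:85473890-85477273), chromosome 1 (Btg2, ENSMUSG00000020423, chr1:134075170-134079120) and chromosome 17 (Dusp1, ENSMUSG00000024190, chr17:26505590-26562128, and Ier3, ENSMUSG00000003541, chr17:35821684-35822923). Printed are the bases before the start, 5′ to 3′ on the gene's strand, without those that the annotation counts as exon: chr12:85473640-85473889 on the plus strand for Fos, chr1:134079156-134079405 on the minus strand for Btg2, chr17:26508520-26508722 on the minus strand for Dusp1 and chr17:35821463-35821683 on the plus strand for Ier3. Capitals mark TGACG on either strand (the core of a CREB/ATF element; 2 overlapping matches read TGACGTCA), TATAAA and matches to the NF-kB site.
Fos: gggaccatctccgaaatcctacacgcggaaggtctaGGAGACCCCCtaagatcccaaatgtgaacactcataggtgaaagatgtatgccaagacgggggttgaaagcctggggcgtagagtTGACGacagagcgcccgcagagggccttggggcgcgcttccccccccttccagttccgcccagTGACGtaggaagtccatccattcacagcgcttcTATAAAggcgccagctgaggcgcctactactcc
Btg2: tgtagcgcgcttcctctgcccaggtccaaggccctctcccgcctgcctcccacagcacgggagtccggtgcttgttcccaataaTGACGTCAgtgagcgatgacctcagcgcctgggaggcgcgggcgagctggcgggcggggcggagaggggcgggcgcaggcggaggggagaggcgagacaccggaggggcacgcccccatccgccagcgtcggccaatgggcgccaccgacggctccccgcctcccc
Dusp1: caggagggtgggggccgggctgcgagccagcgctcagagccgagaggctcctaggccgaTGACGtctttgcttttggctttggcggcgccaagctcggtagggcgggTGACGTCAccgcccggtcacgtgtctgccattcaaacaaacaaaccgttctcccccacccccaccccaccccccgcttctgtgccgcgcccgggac
Ier3: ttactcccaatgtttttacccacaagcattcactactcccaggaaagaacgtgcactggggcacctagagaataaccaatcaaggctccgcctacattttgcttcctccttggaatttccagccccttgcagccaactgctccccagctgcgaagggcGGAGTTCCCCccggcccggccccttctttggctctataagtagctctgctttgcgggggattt
TGACG stood in 6 of the 8 member windows and in 20.81% of 32851 windows of all genes. Fos held it 129 and 66 bases before its start, with TATAAA at 33, and Dusp1 held 3 matches, at 191, 143 and 140 bases. Ier3 and Jun held none. The NF-kB site matched in Fos, Fosb and Ier3, against 4.505% of all windows, and the CArG box, to which serum response factor binds, matched in 0 of 8, against 1.629% of all windows. GGGCGG (an Sp1 site) matched in 7 of 8 members and 35.66% of windows, TATAAA in 2 of 8 and 13.62%, and TGANTCA (an AP-1 site) in 0 of 8 and 7.808%. These matches describe letters in a short window only, and distal elements lie outside it.

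Immediate early transcripts were present in most cells. The 10 genes summed to 12851 CPM in WT CD, 12646 CPM in WT HFD and 14538 CPM in KO HFD, and 98.45%, 97.3% and 97.92% of cells held at least 1 UMI of them. The 149 myofiber-like barcodes, with a median of 98.21% mitochondrial UMIs, had a median of 0 UMIs of the 10 genes in each library, though summed over barcodes the genes came to 4319, 9152 and 5142 CPM. The erythroid-like cluster, a class that should lack these transcripts, was near 0: its 59 cells (median 1561 UMIs) held 2 member UMIs in all, 1 of Fosb and 1 of Egr1, both in KO HFD, where their sum came to 44.06 CPM. Such cells show the background of free RNA in the droplets, here at a lower depth than the other classes. With each cell thinned to 3000 UMIs, Fos was read in 92.08% of FAPs (94.83% unthinned) and 96.77% of MuSCs (97.61% unthinned). In endothelial-like cells the share was 62.58% of the 497 deep enough (54.08% of all 784), with 287 cells left out as too shallow.

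Summed over the 10 genes, Schwann-like cells held 23767 ± 3398 CPM, MuSC-like cells 20877 ± 938.2 CPM, lymphatic-like cells 16297 ± 1861 CPM, FAPs 14935 ± 1517 CPM and B cells 7157 ± 504.1 CPM, but single genes had different orders. In these levels, the 10 classes with at least 20 cells in every library, the myofiber-like barcodes among them, are compared, and each value is the mean CPM of the 3 libraries ± SD (n = 3, 1 library of each group, so the SD also holds any effect of diet and genotype). Fos was read at 7718 ± 1643 CPM in Schwann-like cells, the glia of peripheral nerve, where the libraries gave 8914 CPM (WT CD), 8395 CPM (WT HFD) and 5845 CPM (KO HFD). MuSC-like cells followed at 4741 ± 489.7 CPM and FAPs at 4207 ± 375.1 CPM, and the ranges of these 2 classes overlapped. Lymphatic-like cells held 3535 ± 420.1 CPM of Fos, blood endothelial-like cells 1548 ± 417.9 CPM and B cells 923.7 ± 19.35 CPM. No library of the Schwann-like, MuSC-like, FAP or lymphatic-like classes fell into the range of the mesothelial-like, macrophage-like, endothelial-like, T or NK or B cells for Fos.

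The Schwann-like class held only 103 cells, in 2 clusters that made up different shares of it in the 3 libraries. The cluster marked by Chl1 and Col20a1 held 12 cells in WT CD, 12 in WT HFD and 22 in KO HFD, and Fos was 6405, 6960 and 5873 CPM there.

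**Figure D1:**
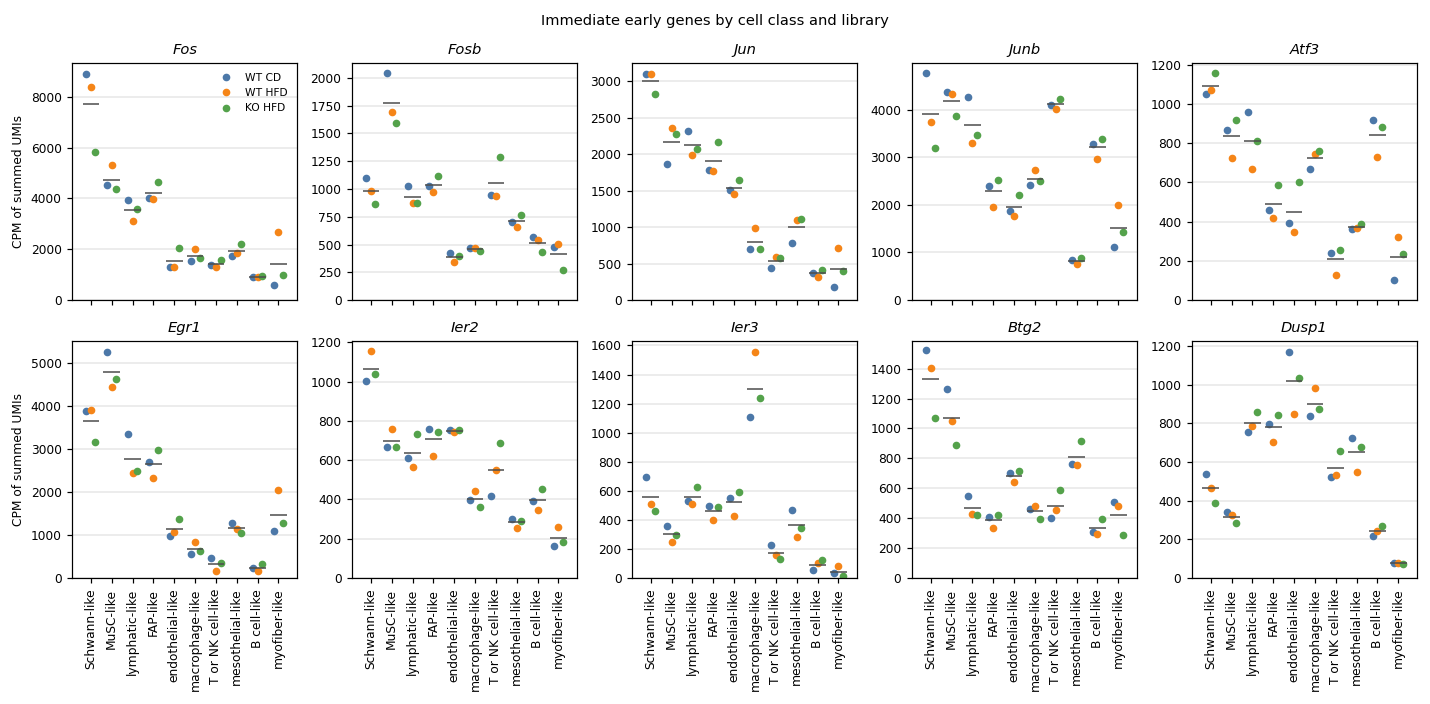
Levels of the 10 immediate early genes (CPM of summed UMIs, linear axes from 0, 1 panel per gene) in each cell class; points are the 3 libraries, coloured by group, and bars their means. Fos, Jun and Egr1 are high in Schwann-like, MuSC-like, lymphatic-like cells and FAPs, whereas Ier3 is highest in macrophage-like cells at 1300 CPM.

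Among the other AP-1 genes, Jun went with Fos and Junb did not. Jun was highest in Schwann-like cells (3007 ± 161 CPM), and its values in MuSC-like cells, lymphatic-like cells and FAPs lay within overlapping neighbouring ranges. Junb was read at 4191 ± 274.5 CPM in MuSC-like cells, 4112 ± 108.6 CPM in T or NK cells and 3904 ± 805.6 CPM in Schwann-like cells, with overlapping ranges, and at 3205 ± 209.1 CPM in B cells, in which the means of Fos and Jun were the lowest of the 10 classes. Mesothelial-like cells held the least Junb, at 754.7 to 885.9 CPM in the 3 libraries, with no overlap with any other class. Fosb was highest in MuSC-like cells (2045, 1691 and 1595 CPM), above every library of every other class. Atf3, a stress-induced member of the family, was 1050, 1071 and 1157 CPM in Schwann-like cells and above the ranges of all other classes, and B cells, MuSC-like cells and lymphatic-like cells overlapped below it.

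Egr1 was highest in muscle stem cells and lowest in lymphocytes. It was 5258, 4453 and 4639 CPM in MuSC-like cells, 2705, 2317 and 2973 CPM in FAPs, 569.2, 841.4 and 640 CPM in macrophage-like cells and 239.4, 166.5 and 322.3 CPM in B cells. No library of MuSC-like cells overlapped any other class. At 3000 UMIs per cell, 97.94% of MuSC-like cells but 19.63% of B cells held an Egr1 UMI (unthinned 98.35% and 32.94%, at medians of 5113 and 7416 UMIs).

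Ier3 and Dusp1 had a different order. Ier3, a gene of the NF-kB and stress response, was 1106, 1553 and 1240 CPM in macrophage-like cells, above every library of every other class, and 52.65, 101.8 and 122.1 CPM in B cells. Dusp1 was highest in endothelial-like cells (1170, 849.9 and 1032 CPM), whose range overlapped that of macrophage-like cells, and low in MuSC-like cells (342, 323.6 and 283.5 CPM), which stood near the bottom of the order for Dusp1 and at or near the top for Fosb, Junb, Egr1 and Btg2. Btg2, an antiproliferative gene, was 1332 ± 234.2 CPM in Schwann-like cells and 1068 ± 187.9 CPM in MuSC-like cells, with overlapping ranges, and between 294.5 and 484.6 CPM in every library of FAPs, macrophage-like cells and B cells. Ier2 was 1066 ± 79.75 CPM in Schwann-like cells, and the next 5 classes, from endothelial-like to T or NK cells, differed from their neighbours by no more than their spread.

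Over the 30 sums of class and library, log2(CPM + 10) of Fos and Jun had a Pearson correlation of 0.90, Ier3 and Dusp1 0.86, Fos and Egr1 0.82, and Egr1 and Dusp1 0.06. These points share libraries and cell composition, so the correlations describe the 10 classes only, and 3 of the points are the myofiber-like barcodes. Over the 27 sums without these, a choice made after seeing the data, the 4 values were 0.89, 0.73, 0.90 and 0.14. Among 5694 genes with at least 20 CPM, those most like Fos included Jun (0.90), Klhdc2 (0.89), Kat2b (0.88) and Hs2st1 (0.88). The 5 most like Ier3 were Asah1 (0.90), Lamp1 (0.90), Ap2m1 (0.89), Ctsd (0.87) and Anxa2 (0.87), of which Asah1, Lamp1 and Ctsd encode lysosomal proteins. The sum of the 10 genes holds Fos (0.95) and Jun (0.90) as parts, and the genes outside it that went most closely with it were Brd2 (0.86), Nktr (0.85) and Nufip2 (0.85). These neighbours depended on the myofiber-like barcodes: without them G0s2 (0.93) and Ppp2r3a (0.92) were most like Fos, and Dnajb1 (0.93) and Fbxo30 (0.91) most like the sum among genes outside it, while Asah1 (0.88), Ctsd (0.85) and Lamp1 (0.83) were again among the 5 most like Ier3.

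To ask how the stem cells differed from the stroma around them, classes were compared within libraries with edgeR's quasi-likelihood test on the 30 sums, with p adjusted by Benjamini-Hochberg over 10932 genes. The 3 libraries, 1 of each group, served as the repeats. Higher in MuSC-like cells than in FAPs were 6 of the 10 genes, and 1 was lower, where 25.4% of all genes tested were called higher and 30.1% lower. Btg2 differed most, at a log2 fold change of 1.72 (SE 0.21, adjusted p = 2.748e-08), a 3.3-fold difference. Junb (log2 1.14, SE 0.17), Egr1 (1.11, SE 0.24), Atf3 (1.05, SE 0.19) and Fosb (1.03, SE 0.20) were each about as far apart, with adjusted p between 9.459e-07 and 0.000251. Dusp1 was the lower one, at a log2 fold change of -1.04 (SE 0.16, adjusted p = 8.694e-07), and no library of the 2 classes overlapped. Jun passed narrowly (log2 0.44, adjusted p = 0.0473), and its call was lost without any 1 of the 3 libraries and in 6 other settings. Fos (0.43, adjusted p = 0.1284), Ier2 (0.25, adjusted p = 0.2018) and Ier3 (-0.36, adjusted p = 0.2119) did not pass. The median of the 10 genes was 0.73 on the log2 scale, against -0.08 over all genes. MuSC-like cells had a median of 5113 UMIs and 4.491% mitochondrial UMIs and FAPs 8612 UMIs and 2.969%, and the part of these in the difference was not tested.

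The second comparison set blood endothelial-like cells against FAPs. Fos (log2 -1.46, SE 0.25, adjusted p = 5.822e-06), Fosb (-1.45, SE 0.21, adjusted p = 3.743e-07) and Egr1 (-1.23, SE 0.25, adjusted p = 7.941e-05) were lower, whereas Btg2 was higher (0.80, SE 0.21, adjusted p = 0.00168). Dusp1 also passed as higher (0.36, adjusted p = 0.04895), and the call was lost in 11 of 14 other settings. Without the WT HFD library neither Btg2 nor Dusp1 was called higher. The 5 others were not called. Over all genes 27.8% were higher and 25.5% lower, and the members' median was -0.20 against 0.02. Depth differed between the classes, with a median of 3524 UMIs in endothelial-like cells and 8612 in FAPs, and its part in the difference was not tested alone: with cells thinned to 3000 UMIs, which left out the 287 shallower endothelial-like cells, 5 members were lower, Jun and Junb in addition, and the same 5 were lower at full depth with the myofiber-like barcodes left out of the fit. Over all genes 28% were lower when thinned and 28.4% with the myofiber-like barcodes left out. The median share of mitochondrial UMIs was 4.572% in endothelial-like cells and 2.969% in FAPs, and its part in the difference was not tested.

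Lymphatic-like cells, which line the lymph vessels and are marked by Prox1 and Mmrn1, stood above blood endothelial-like cells in 5 of the 10 genes. Fosb (log2 1.26, SE 0.21), Egr1 (1.25, SE 0.25), Fos (1.201, SE 0.25), Junb (0.91, SE 0.17) and Atf3 (0.88, SE 0.19) were higher, with adjusted p between 1.671e-05 and 0.0006585, which corresponds to folds of 1.836 to 2.391. In each of these 5 genes, every library of lymphatic-like cells lay above every library of endothelial-like cells. By edgeR, 0 members were lower after adjustment, 2 at an unadjusted p under 0.05 (Btg2, adjusted p = 0.05924, and Dusp1, adjusted p = 0.1307). DESeq2 also called 0 lower, beside 10.1% of all genes. Other settings did call members lower: no filter on low counts, all variable genes in the clustering, gating by marker UMIs and doublets removed. The same held for stricter barcodes, thinning, and leaving out the myofiber-like barcodes or the WT CD library. The background was 11.8% of genes higher and 12.3% lower, and the members' median was 0.68 against 0.00 over all genes. Lymphatic-like cells had a median of 5664 UMIs and 3.355% mitochondrial UMIs, against 3524 UMIs and 4.572% in endothelial-like cells, and the part of these in the difference was not tested.

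Macrophage-like cells divided the list. Ier3 was 3.987-fold higher than in FAPs (log2 1.995, SE 0.24, adjusted p = 9.698e-09), and Atf3 (log2 1.08), Dusp1 (0.70), Btg2 (0.69) and Junb (0.65) were higher too. Egr1 (log2 -1.46, SE 0.25, adjusted p = 4.142e-06), Fos (-0.80), Jun (-0.78) and Fosb (-0.69) were lower, and Ier2 was not called (-0.33, adjusted p = 0.06421). The class mixes clusters with different levels, described below. In Mmp12 Retnla macrophages Atf3 was 484.6, 550 and 518.6 CPM in WT CD, WT HFD and KO HFD, within the 418.1 to 585.6 CPM of FAPs, and in Folr2 Cd209f macrophages it was 1373, 1104 and 1471 CPM. Jun, in turn, was 1828, 1576 and 1621 CPM in Folr2 Cd209f macrophages, beside 1907 ± 224 CPM in FAPs (SD, n = 3), and 334.4 to 396 CPM in Mmp12 Retnla macrophages. The clusters were not tested against FAPs. In this comparison 39% of all genes were higher and 30.9% lower, and 6 of 7 reference genes were higher, with Actb at 2.199 and Gapdh at 1.33. The scaling of the sums matters here: with library totals in place of TMM factors, the median of all genes moved from 0.12 to -0.36, and Junb (0.16), Dusp1 (0.21) and Btg2 (0.20) were no longer called, so that 2 members, Ier3 and Atf3, were higher, while Ier2 (-0.82, adjusted p = 0.0003343) was called lower. Over all genes 22.3% were then higher and 46.8% lower. DESeq2 gave 4 higher and 5 lower, with Ier2 lower (-0.54, adjusted p = 0.0006314) and Btg2 not called (0.48, adjusted p = 0.0936). In that fit 26.4% of all genes were higher and 32.6% lower. Without the WT HFD library the number of higher members was also 2, beside 34.9% of all genes. With the held-out genes let into the clustering, which kept 65.92% of the macrophage-like cells in their class, Fos and Jun were not called lower. In MuSC-like cells against FAPs, library totals moved the median of all genes from -0.08 to -0.34: Btg2, Junb, Egr1, Atf3 and Fosb were still called higher and Dusp1 lower, Jun (0.17) was no longer called, and Ier3 (-0.63, adjusted p = 0.04552 by edgeR) was called lower. Beside these, 17.1% of all genes were higher and 39.6% lower.

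B cells were set against macrophage-like cells as the other large immune class. Ier3 was 14.37-fold lower (log2 -3.84, SE 0.28, adjusted p = 6.206e-13), Dusp1 3.575-fold lower (-1.84, SE 0.16), Egr1 2.776-fold (-1.47), Jun 2.055-fold (-1.04) and Fos 1.776-fold (-0.83). The 5 others, Junb (0.39, adjusted p = 0.06251), Atf3 (0.28), Fosb (0.23), Ier2 (0.05) and Btg2 (-0.37), did not pass. By edgeR 0 members were higher after adjustment and 1 at an unadjusted p under 0.05. DESeq2 called 1 higher, beside 14.8% of all genes, and 1 was also higher with gating, stricter barcodes, thinning or myofiber-like cells left out. The background was 17.6% higher and 26.2% lower.

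**Figure D2:**
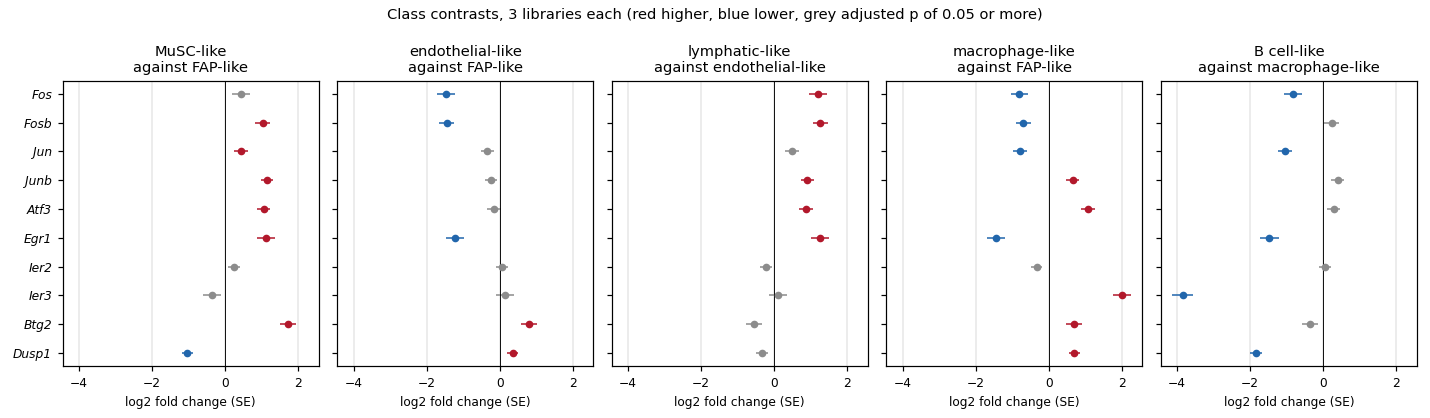
Log2 fold changes of the 10 members in the 5 class comparisons (edgeR, points with standard errors; red is higher, blue lower, and grey did not pass an adjusted p of 0.05). Btg2, Junb, Egr1, Atf3 and Fosb are near or above 1 in MuSC-like cells against FAPs, and Ier3 spans from 1.995 in macrophage-like cells against FAPs to -3.84 in B cells against macrophage-like cells.

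Other genes of the same response were read from lists of related function, and they did not all go with the 10. In MuSC-like cells against FAPs 25.4% of all genes were higher and 30.1% lower. Of 10 heat shock chaperone genes, which tissue digestion is also known to raise, 9 were higher in MuSC-like cells than in FAPs and 0 lower by edgeR, with Hsp90aa1 at a log2 fold change of 1.28, Hspa8 at 0.93 and Dnaja1 at 0.90, while Hspb1 did not pass (0.58, adjusted p = 0.2047). Of 15 feedback and mRNA decay genes 9 were higher and 1 lower, with Zfp36l1 (1.60), Zfp36 (1.197) and Nfkbia (0.51) among them. Of 18 other immediate early genes tested 9 were higher and 2 lower, with Jund at 1.37 and Klf2 at -1.52. The upstream kinases and promoter-bound factors gave 1 higher (Elk4, 0.63) and 3 lower of 12, among them Mapk3 at -0.58. Of 7 reference genes 3 were higher and 1 lower, with Gapdh at 1.06 and Rplp0 at 0.99, so that genes of general use also differed between these classes.

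In endothelial-like cells 8 of 18 other immediate early genes were higher than in FAPs and 3 lower, beside 27.8% and 25.5% of all genes. Klf2, a factor of endothelium under blood flow, was higher by 2.63 on the log2 scale (SE 0.26, adjusted p = 1.163e-10). Of the 8 delayed response genes tested, 6 were lower there, with Ptgs2 at -4.12, Ccl2 at -3.31 and Cxcl1 at -2.26. In macrophage-like cells 11 of 15 feedback genes were higher than in FAPs and 4 lower, beside 39% and 30.9% of all genes, with Zfp36 at 1.86 and Nfkbia, the NF-kB inhibitor, at 1.53. Cxcl2, a neutrophil-attracting chemokine of the delayed list, was higher by 9.07 (SE 0.54), and Ccl2 by 2.64, whereas Ccn1 was lower (-3.23). Against macrophage-like cells, B cells were lower in 7 of 8 delayed genes and 8 of 15 feedback genes, beside 26.2% of all genes, and Jund was higher (0.97). Between lymphatic-like and endothelial-like cells 7 of 15 feedback genes were higher and 2 lower, and 2 of 18 other immediate early genes were higher and 6 lower, with Klf2 at -0.95, beside 11.8% of all genes higher and 12.3% lower.

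FAPs fell into 8 states by clustering, named from marker lists where these matched and otherwise from their leading genes. The leading genes of the Dpp4 Sema3c state among all cells were Dact2, Stmn4, Wnt10b, Sema3c, Sbsn and Efhd1, so Dpp4 was not among them. Of the states, 7 had at least 20 cells in every library. Each was compared with the mean of the other 6 in an edgeR fit over 21 sums and 11344 genes. The states were found in the same cells, though without these genes, so the p-values speak of the repeat over libraries. Cells marked by Cxcl14 and Mme, a marker of adipogenic FAPs, held 24051, 20749 and 25790 CPM of the 10 genes in WT CD, WT HFD and KO HFD. Cells marked by Fmod, Sfrp2 and Tnmd held 20442, 18292 and 21063 CPM, and Dpp4 Sema3c cells 9177, 9016 and 9704 CPM. In all 3 libraries the order of these states was the same.

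All 10 genes were higher in Cxcl14 Mme FAPs, where 14.5% of all genes were higher and 13.1% lower. Ier2 was higher by 1.04 (SE 0.05, adjusted p = 6.892e-17), Jun by 0.95, Fosb and Btg2 by 0.92, Egr1 by 0.91, Junb by 0.88 and Fos by 0.72, with 6215, 5889 and 6846 CPM of Fos in the 3 libraries. Dusp1 (0.53), Atf3 (0.39) and Ier3 (0.33) differed least. The median was 0.90, against 0.00 over all genes. In Fmod Sfrp2 Tnmd FAPs 9 of 10 were higher (18.1% of genes higher and 16% lower), led by Ier3 (0.80, SE 0.04) and Fosb (0.79, SE 0.05), and Junb did not pass (0.11, adjusted p = 0.2235).

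All 10 genes were lower in Dpp4 Sema3c FAPs, where 18.2% of genes were higher and 18.9% lower. Fosb had a log2 fold change of -1.26 (SE 0.06, adjusted p = 2.551e-18), Fos and Ier3 of -0.92, and Dusp1 differed least (-0.43). Fos stood at 2122, 2405 and 2573 CPM there, below every library of every other state, the 51 Ifit3 Ifit1 cells that were too few to test included. The calls of 10 higher and 10 lower in these 2 states held without each library in turn.

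The sum of the 10 genes in the other 4 states lay between these in every library, but single members did not all do so: Egr1 was 1421, 1588 and 1755 CPM in Dio2 Pthlh Col8a1 FAPs, below the 1887, 1841 and 1789 CPM of Dpp4 Sema3c FAPs. In Dio2 Pthlh Col8a1 FAPs 8 members were lower, Egr1 most (-0.79), and Ier3 was higher (0.18), with 12.8% of genes higher and 9.56% lower. In Sult1e1 Col6a5 FAPs 8 were lower, led by Ier2 (-0.60) and Jun (-0.57), and Atf3 was higher (0.26), with 10.7% of genes higher and 8.27% lower. Fewer were lower there without the WT HFD library, and the Atf3 call was lost without the KO HFD library or without TMM factors. In Gdf10 Rbp4 Penk FAPs Ier2 was lower (-0.24) and 0 were higher by edgeR (1 at an unadjusted p under 0.05), with 11.9% and 8.22% of genes. In Ret Myoc FAPs Ier2 was higher (0.38) and Ier3 lower (-0.18), with 6.77% and 5.91% of genes. More members were higher there without the WT CD library or without TMM factors, and the Ier3 call was lost without the KO HFD library. These calls depended on how cells were assigned: by a marker score for single FAPs in place of clusters, Dio2 Pthlh Col8a1 FAPs had 2 members lower and 0 higher by edgeR, with Jun (0.01), Junb (0.03) and Ier2 (0.08) on the other side of 0, and in Gdf10 Rbp4 Penk FAPs Ier2 turned to 0.12 and 3 members were higher.

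**Figure D3:**
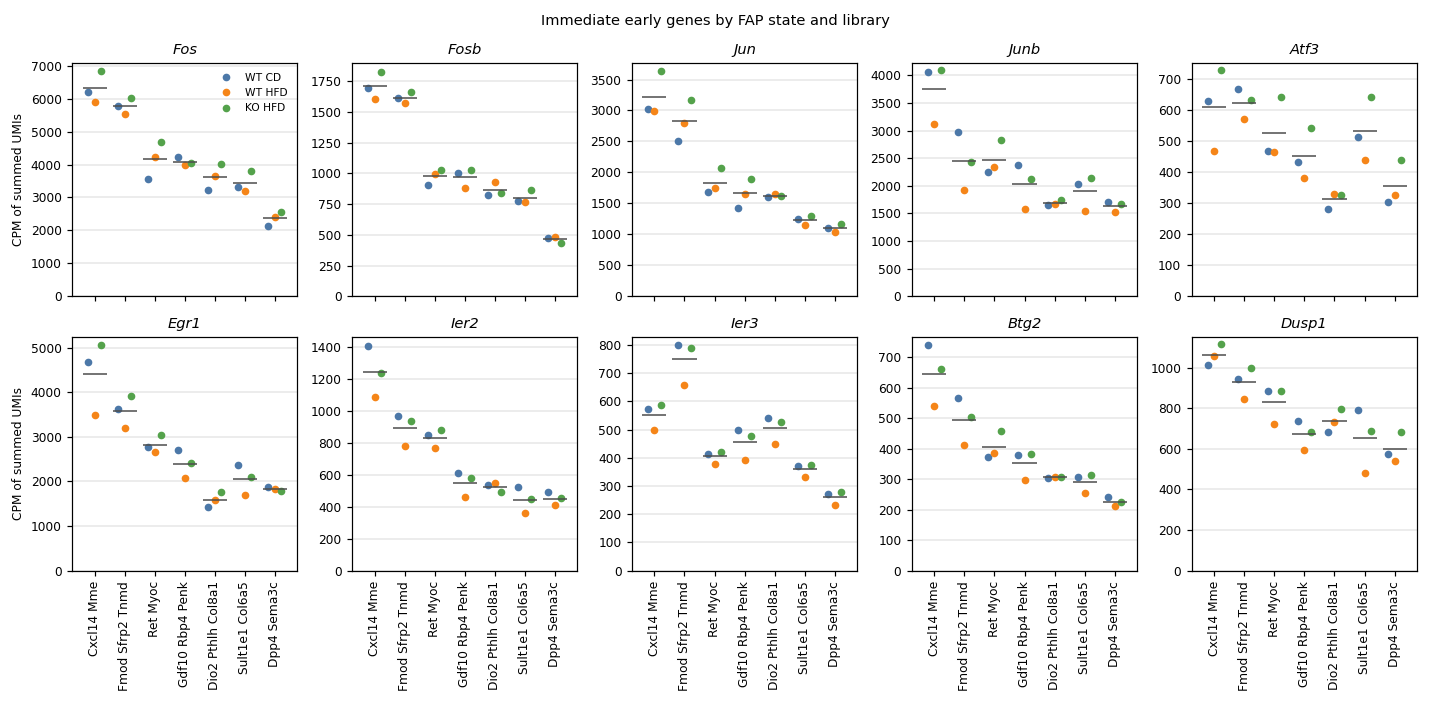
Levels of the members (CPM, linear axes from 0, 1 panel per gene) by FAP state; points are the 3 libraries, coloured by group, and bars their means. Cxcl14 Mme and Fmod Sfrp2 Tnmd cells lie at the top for Fos, Fosb and Jun and Dpp4 Sema3c cells at the bottom.

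Companion genes also differed between the states, but not every list went with the members. In Fmod Sfrp2 Tnmd FAPs 2 of 9 delayed genes were higher and 6 lower, beside 18.1% and 16% of all genes. There 7 of 15 feedback genes were higher and 3 lower, and 6 of 19 other immediate early genes higher and 5 lower. In Sult1e1 Col6a5 FAPs 4 of 9 delayed genes were higher and 1 lower, and 2 of 15 feedback genes higher and 6 lower, beside 10.7% and 8.27%. In Cxcl14 Mme FAPs 10 of 15 feedback genes were higher and 0 lower, beside 14.5% and 13.1% of all genes, with Gadd45b at 1.08, Zfp36 at 0.85 and Zfp36l1 at 0.63. Of the other immediate early genes 13 of 19 were higher and 2 lower, of the heat shock genes 7 of 10 higher and 1 lower (Hspb1, -0.20), and of the delayed genes 6 of 9 higher, with Cxcl1 at 1.30. Of the upstream genes 1 was higher and 1 lower of 13, and of the 7 reference genes 0 were higher and 3 lower, with Rplp0 at -0.35. In Dpp4 Sema3c FAPs 11 of 15 feedback genes were lower and 2 higher, beside 18.9% and 18.2% of all genes, with Gadd45b at -1.56 and Zfp36 at -0.74. Klf2 (0.77), Klf4 (0.31), Cxcl2 (1.07), Ccl2 (0.90) and Ptgs2 (0.49), single genes of other lists, were higher, but their lists were mixed. Of the other immediate early genes in this state 6 of 19 were higher and 6 lower, and of the delayed genes 3 of 9 higher and 4 lower. Of the heat shock genes 1 of 10 was higher and 5 lower. Depth and mitochondrial share moved with the states: the median was 7388 UMIs and 3.363% in Cxcl14 Mme cells, 7460 UMIs and 3.397% in Fmod Sfrp2 Tnmd cells and 10806 UMIs and 2.556% in Dpp4 Sema3c cells, and their part in these differences was not tested. When single FAPs were assigned by a marker score in place of clusters, Atf3 in Cxcl14 Mme cells was -0.02 and no longer called.

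Within a class, cells spread widely. At 3000 UMIs per cell the 10 genes summed to a median of 42 UMIs in 6486 FAPs, with 8 at the 10th percentile and 92 at the 90th. In 1114 MuSC-like cells the median was 59 and the percentiles 24.3 and 110, and in 1201 macrophage-like cells 27, 10 and 74. Endothelial-like cells had a median of 20 and percentiles of 5 and 66. Fos itself had a median of 11 UMIs in FAPs and in MuSC-like cells but 1 in endothelial-like cells, where the 10% of cells with most Fos held 46.42% of its UMIs, against 27.12% in FAPs. The Fano factor of the sum (variance over mean, 1 for counting alone) was 23.02 in FAPs, 19.28 in MuSC-like cells and 23.59 in endothelial-like cells.

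Cells rich in one of the genes tended to be rich in others. Across FAPs every pair had a positive Pearson correlation of the log of thinned counts plus 1, from 0.18 (Ier3 with Btg2) to 0.67 (Junb with Egr1). In endothelial-like cells the pairs ran from 0.18 (Fosb with Dusp1) to 0.71 (Fos with Egr1), in macrophage-like cells from 0.03 (Fosb with Ier3) to 0.57 (Jun with Egr1) and in MuSC-like cells from 0.02 (Fosb with Ier3) to 0.55 (Junb with Egr1). Cells of 1 library share its digestion, and sparse counts hold these values down, so they are given as a description. Each class was taken whole, over clusters or states with different levels of the genes. The part of these levels in the correlations was not tested.

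**Figure D4:**
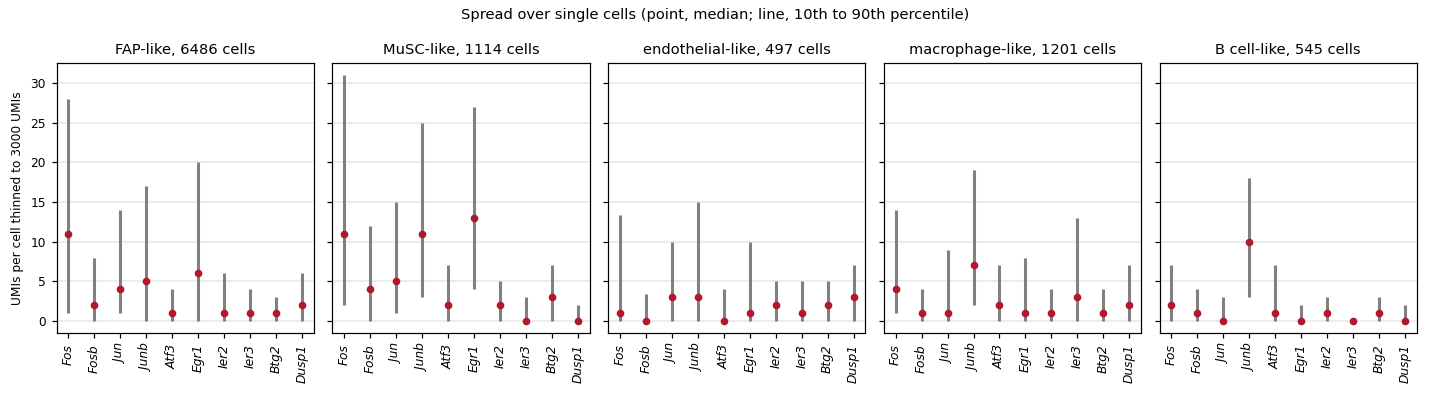
UMIs per cell of each member, with every cell thinned to 3000 UMIs, in 5 classes; points are medians and lines run from the 10th to the 90th percentile of cells. Fos has a median of 11 in FAPs and MuSC-like cells and of 1 in endothelial-like cells.

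The remaining question was whether the genes differed with diet and with loss of Thbs1. In FAPs all 10 were lower in WT HFD than in WT CD, by -0.31 to -0.01 on the log2 scale with a median of -0.21, and all 10 were higher in KO HFD than in WT HFD, by 0.19 to 0.49 with a median of 0.29. The median of all genes was 0.09 in the first comparison and -0.05 in the second. Exact 95% Poisson intervals of the 2 CPM values did not overlap for 8 genes in the first comparison and all 10 in the second, but these intervals cover counting error only. By the same rule 8.06% of all genes were lower and 26.1% higher in WT HFD than in WT CD, and 9.23% were higher and 15.2% lower in KO HFD than in WT HFD. Not one member passed 1.5-fold in FAPs, and over all genes tested 1.18% did so between WT HFD and WT CD and 0.69% between KO HFD and WT HFD. Egr1, for example, was 2705 CPM in WT CD, 2317 CPM in WT HFD and 2973 CPM in KO HFD. The states did not all share these directions. In WT HFD against WT CD 9 of 10 genes were higher in Dio2 Pthlh Col8a1 FAPs (median 0.07, against 0.083 over all genes there). In Ret Myoc FAPs 5 were higher and 5 lower (median 0.02, against 0.077), and in the other 5 states 7 to 10 were lower. The members' medians in Dio2 Pthlh Col8a1 and Ret Myoc FAPs thus did not lie above those of all genes. In KO HFD against WT HFD 5 were higher and 5 lower in Dio2 Pthlh Col8a1 FAPs (median 0.02, against -0.034 over all genes), and 8 to 10 higher in the other 6. State sizes differed between libraries, with 334, 284 and 476 Cxcl14 Mme cells in WT CD, WT HFD and KO HFD. Weighting the FAP states alike turned 2 genes in WT HFD against WT CD (Fos 0.02 and Jun 0.05) and left all 10 higher in KO HFD. The 2 comparisons share the WT HFD library, so a low value there lowers one and raises the other.

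Macrophage-like cells went the other way, with all 10 genes higher in WT HFD than in WT CD (median 0.20) and 9 lower in KO HFD than in WT HFD (median -0.27). The median of all genes in the class was 0.023 in the first comparison and 0.016 in the second. The 2 larger clusters of the class did not both share these directions. In the cluster marked by Folr2 and Cd209f, receptors of tissue-resident macrophages, the genes summed to 17694, 14806 and 16633 CPM in WT CD, WT HFD and KO HFD, and all 10 were lower in WT HFD than in WT CD (median -0.24, Ier2 most at -0.65). In the cluster marked by Mmp12 and Retnla the sum was 6786, 7184 and 6862 CPM, with 7 of 10 higher in WT HFD (median 0.06). This median was close to the 0.054 of all genes in that cluster. In Folr2 Cd209f cells the median of all genes was 0.053. Between KO HFD and WT HFD 8 of 10 were higher in Folr2 Cd209f cells (median 0.16) and 7 of 10 lower in Mmp12 Retnla cells (median -0.11). The medians of all genes were 0.003 and -0.031. With the held-out genes let into the clustering, 2 of 10 were higher in WT HFD than in WT CD in the macrophage-like class. That clustering kept only 65.92% of the cells of the reported class, and its class held 154, 353 and 315 cells. In the reported clustering the share of the class in the member-rich Folr2 Cd209f cluster differed, at 99 of 291 cells in WT CD, 245 of 448 in WT HFD and 213 of 508 in KO HFD. The third cluster, marked by Saa3 and Alox15, held only 8, 56 and 14 cells and followed the pattern of the whole class: the sum was 8895, 13454 and 10969 CPM, with 9 of 10 genes higher in WT HFD than in WT CD and all 10 lower in KO HFD than in WT HFD. Ier3 shows the gap between clusters: it was 2556, 1956 and 2414 CPM in Folr2 Cd209f cells and 688.3, 731.1 and 748.2 CPM in Mmp12 Retnla cells.

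Elsewhere few members passed 1.5-fold. Among 90 values (10 genes in 9 classes), 4 did so between WT HFD and WT CD with intervals that did not overlap. These were Ier3 in mesothelial-like cells (283.4 against 471.3 CPM) and B cells (101.8 against 52.65 CPM), and Atf3 (128.9 against 241.4 CPM) and Egr1 (170.9 against 473.9 CPM) in T or NK cells. Between KO HFD and WT HFD there were 5: Fos (2031 against 1305 CPM) and Atf3 (602.6 against 347.5 CPM) in endothelial-like cells, Egr1 in B cells (322.3 against 166.5 CPM), and Atf3 (257.6 against 128.9 CPM) and Egr1 (339.8 against 170.9 CPM) in T or NK cells. The T or NK class held 88, 51 and 89 cells, and with called doublets removed Egr1 turned to 0.19 in WT HFD against WT CD.

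Over all genes the share past 1.5-fold in either direction was widest in the small classes. Between WT HFD and WT CD it was 15.7% in MuSC-like, 12.4% in endothelial-like, 28.6% in lymphatic-like, 34.1% in Schwann-like, 24.5% in mesothelial-like, 10.5% in macrophage-like, 9.65% in B and 33.2% in T or NK cells. Between KO HFD and WT HFD it was 5.48%, 13.8%, 23.1%, 42.5%, 20.5%, 5.71%, 19% and 38.1% in the same order. The members' 2 of 10 in T or NK cells thus stood under the background, and their 2 of 10 in endothelial-like cells beside 13.8%. Inside the 7 FAP states, 4 values passed with intervals that did not overlap: Atf3 in Cxcl14 Mme cells was higher in KO HFD than in WT HFD (0.64), and Junb in Gdf10 Rbp4 Penk (-0.60) and Fmod Sfrp2 Tnmd cells (-0.64) and Dusp1 in Sult1e1 Col6a5 cells (-0.72) were lower in WT HFD than in WT CD. Each is 1 of 10 members. Of all genes, 5.58% were past the fold between WT HFD and WT CD in Cxcl14 Mme, 8.04% in Gdf10 Rbp4 Penk, 6.53% in Fmod Sfrp2 Tnmd, 8.98% in Sult1e1 Col6a5, 5.59% in Dio2 Pthlh Col8a1, 2.93% in Dpp4 Sema3c and 2.81% in Ret Myoc FAPs. Between KO HFD and WT HFD these shares were 3.64%, 3.97%, 3.88%, 3.75%, 3.3%, 2.13% and 1.76% in the same order.

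**Figure D5:**
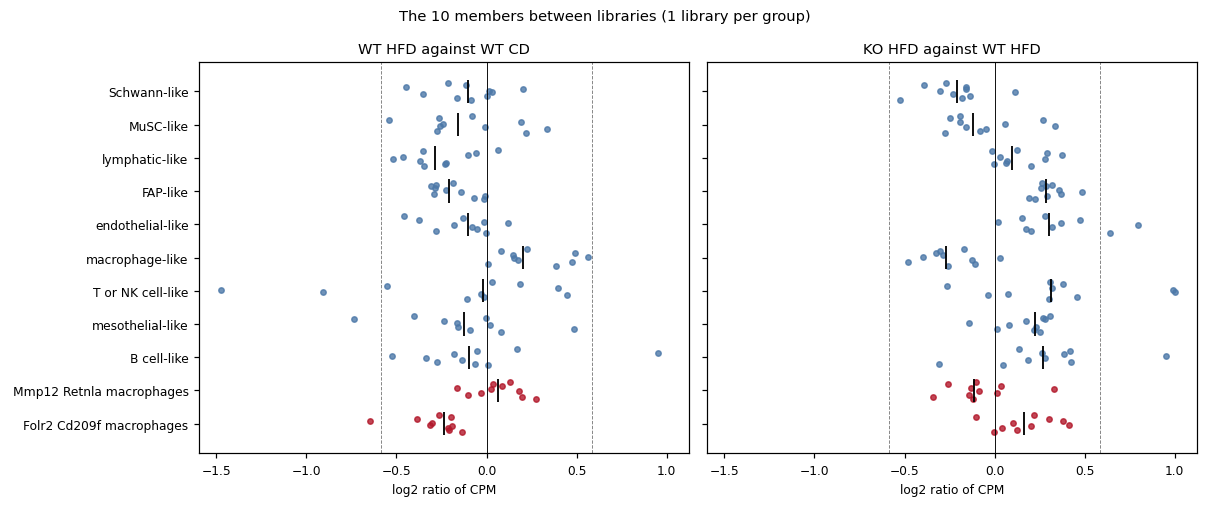
Log2 ratios of the 10 members between libraries by class and in 2 macrophage clusters (WT HFD against WT CD, and KO HFD against WT HFD); 1 point is 1 gene, black bars are medians, dashed lines mark 1.5-fold, and there is 1 library per group. In FAPs all 10 points lie below 0 in the first comparison and above 0 in the second, while those of macrophage-like cells lie above 0 in the first and 9 of 10 below it in the second.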

How the data were processed

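The authors prepared 3′ single-cell libraries (10x Genomics) from 2 pooled diaphragms per group, mapped them to GRCm38 with Cell Ranger (6.1.1 per the submitters' processing notes; a file header names another minor version) and deposited counts: whole-number UMIs per gene and cell, not normalized, 1 filtered matrix per library. Filters before deposit are not given in the sources used here beyond dead-cell exclusion.

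From these counts cells were normalized to 10000 UMIs and clustered (scanpy 1.11.5, 2000 variable genes, 30 components, Leiden resolution 1) without the 10 members and the other response genes, 63 genes in all. Clusters were named from marker lists when at least 3 markers were detected in 10% of cells and their mean log2 ratio to the other clusters reached 1. Left unnamed were clusters deeper than 2.5 times the library median, and very shallow ones without their own markers among the 10 leading genes. The same held where markers of another list led. By depth, 399 cells in 2 clusters stayed unnamed, at 0.1434 and 2.869 times the library median. Scrublet marked 1.258%, 1.086% and 1.328% of cells as doublets, which were kept. UMIs were summed per class and library. Classes were compared with edgeR 4.0.16 (R 4.3.3; TMM factors, filterByExpr, quasi-likelihood test, library as a block, Benjamini-Hochberg over all genes, threshold 0.05; 18 residual degrees of freedom, 12 for FAP states). Libraries were compared as CPM with exact 95% Poisson intervals, past the fold meaning 1.5-fold with at least 20 CPM in 1 library; intervals cover counting error only. On simulated counts for MuSC-like cells against FAPs (9658 genes), 95% of genes changed by a log2 of 1 and 51% of those changed by 0.585 were recovered, with 3.31% of calls false. For Cxcl14 Mme FAPs (11064 genes) these values were 81.8%, 49% and 2.26%.

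The members and the gene lists were chosen with earlier results of these data known. Named are all members, Thbs1, the 4 most abundant genes of each list, the 5 genes most like Fos, Ier3 and the sum, and members past 1.5-fold between libraries with intervals that did not overlap. Of the upstream list these include Map2k2, Mapk3 and Elk4, and of the reference list they are Actb, Rplp0, Ppia and Gapdh. A few genes that this rule names, and 1 cluster, are not reported here. Myofiber-like barcodes had a median of 98.21% mitochondrial UMIs and were not compared between libraries, a choice made after their values were seen. DESeq2 1.42.0, no TMM, no filter, other clusterings, gating, doublet removal, stricter barcodes and thinning were the alternatives.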

Additional observations from a re-analysis of the deposited data

Results flagged for a closer look

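Between libraries at least 9 of the 10 genes had the same sign in some classes, and the sign was not the same in all of them. Only these classes are listed, by sign alone. Among the listed values members passed 1.5-fold only between KO HFD and WT HFD, 2 in endothelial-like and 1 in B cells. Between WT HFD and WT CD the median log2 ratio was -0.2056 in FAPs, -0.1056 in endothelial-like and -0.2885 in lymphatic-like cells, against 0.1998 in macrophage-like cells. Over all genes the medians were 0.088, 0.039, 0.154 and 0.023 in this order. In FAPs counting intervals did not overlap for 8 members, all lower, beside 8.06% of all genes lower and 26.1% higher by that rule. Between KO HFD and WT HFD the members' median was 0.2868 in FAPs, 0.3003 in endothelial-like, 0.2259 in mesothelial-like and 0.2709 in B cells, against -0.2718 in macrophage-like and -0.2065 in Schwann-like cells. Over all genes the medians here were -0.048, -0.039, 0.0007, -0.015, 0.016 and -0.049. In FAPs intervals did not overlap for all 10 members, beside 9.23% of all genes higher and 15.2% lower. The macrophage-like value mixes clusters whose shares differed: the Folr2 Cd209f cluster held 99 of 291 cells in WT CD and 245 of 448 in WT HFD. Within it all 10 genes were lower in WT HFD (median -0.2388, against 0.053 over all genes). In Mmp12 Retnla cells the median was 0.06, close to the 0.054 of all genes there. Nor did all FAP states share the value of the class. In WT HFD against WT CD 9 of 10 genes were higher in Dio2 Pthlh Col8a1 FAPs (median 0.07) and 5 in Ret Myoc FAPs (median 0.02). The medians of all genes there were 0.083 and 0.077, so these members did not lie above all genes. With 1 library per group the difference between classes was not tested, and both comparisons share WT HFD.

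Signal also stood in the 2 clusters without a name, which entered no comparison. The 280 barcodes of the cluster led by mitochondrial transcripts held 9768 CPM of the 10 genes (exact 95% interval 9486 to 10057), and the 119 cells led by immunoglobulin genes held 4127 CPM (4052 to 4204). Both lay above the 44.06 CPM of erythroid-like cells in KO HFD.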

How the results depend on the processing

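Of 700 recomputed values of single members between classes, 612 kept their direction and side of the threshold, 17 changed sign without being called in either fit, 34 lost the call, 37 gained it and 0 called values changed sign; of 370 in FAP states these numbers were 307, 20, 23, 13 and 7. Between libraries 1202 of 1460 moved by less than the counting interval and 257 moved more; 120 changed sign, of which 1 was past 1.5-fold in the reported values. Classes and FAP states were compared within libraries, with library as a block. No paired analysis was possible for diet and genotype, because each group had 1 library and the labels gave no replicate numbers. Leaving out myofiber-like cells, here and in the correlations, was chosen after seeing the data.

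Without TMM, 2 members were lower in MuSC-like cells against FAPs (1 in the reported fit) and 2 higher in macrophage-like cells against FAPs (5), 1 higher in endothelial-like cells (2), 3 lower in Gdf10 Rbp4 Penk, 3 higher in Ret Myoc and 0 higher in Sult1e1 Col6a5 FAPs (1 each). Over all genes the shares were 39.6% (30.1% in the reported fit), 22.3% (39%), 27.3% (27.8%), 12.2% (8.22%), 7.67% (6.77%) and 8.15% (10.7%) in this order. Without the filter, 2 were lower in MuSC-like, 1 higher in endothelial-like and 1 lower in lymphatic-like cells, beside 18.6%, 13.7% and 6.65% of all genes. The number higher in endothelial-like cells was also 1 with library out of the fit, at resolution 2, gated by marker UMIs, without doublets, thinned and without myofiber-like cells, and the number lower 5 rather than 3 in the latter 2. Of all genes 27.6%, 24.9%, 30.1%, 28.3%, 25% and 25.7% were higher in this order, and 28% and 28.4% lower in the latter 2. In lymphatic-like against endothelial-like cells 1 rather than 0 was lower with all variable genes, gating, doublets removed, stricter barcodes or myofiber-like cells left out, and 2 when thinned. The shares of all genes lower were 12.2%, 12.7%, 12.8%, 12.1%, 12.4% and 11.5% (12.3% in the reported fit). In B cells against macrophage-like cells 1 rather than 0 was higher with DESeq2, gating, stricter barcodes, thinning or myofiber-like cells left out. The shares of all genes higher were 14.8%, 20.9%, 18.7%, 16.3% and 18.8% (17.6% in the reported fit). Clustering with all variable genes gave 2 lower in macrophage-like cells (4), 5 lower in Dio2 Pthlh Col8a1 (8) and 0 lower in Gdf10 Rbp4 Penk FAPs, beside 28.3%, 9.49% and 9.39% of all genes. That clustering changed the groups themselves: it kept 65.92% of macrophage-like cells and 83.14% of FAPs in their class. It gave no Fmod Sfrp2 Tnmd state, and an Agt Ptx3 Has1 state appeared. Without 1 library, the counts ran from 0 to 1 higher in endothelial-like (0 without WT HFD), 0 to 1 lower in lymphatic-like (1 without WT CD) and 2 to 5 higher in macrophage-like cells (2 without WT HFD), 1 to 3 lower in Gdf10 Rbp4 Penk (3 without WT CD), 1 to 4 higher (4 without WT CD) and 0 to 1 lower (0 without KO HFD) in Ret Myoc, and 0 to 1 higher (0 without KO HFD) and 5 to 9 lower (5 without WT HFD) in Sult1e1 Col6a5 FAPs. In the fits named in brackets the shares of all genes were 23.4%, 9.77%, 34.9%, 6.33%, 5.17%, 3.68%, 7.29% and 5.19% in this order.

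With FAPs assigned by marker score, Dio2 Pthlh Col8a1 had 0 higher and 2 lower, beside 8.32% and 7.2% of all genes, and Gdf10 Rbp4 Penk 3 higher and 0 lower, beside 7.81% and 5.57%. There Atf3 turned to -0.02345 in Cxcl14 Mme, Jun to 0.0133, Junb to 0.03416 and Ier2 to 0.085 in Dio2 Pthlh Col8a1, and Jun to 0.24, Atf3 to 0.21 and Ier2 to 0.12 in Gdf10 Rbp4 Penk cells.

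Between libraries, 4 of 90 values past 1.5-fold in WT HFD against WT CD became 9 with TMM factors, 9 when thinned and 10 when gated, and 5 in KO HFD against WT HFD became 9 when gated. The shares of all genes in these settings are not given, so the counts do not show whether the members moved more than other genes. Gating also left smaller classes, such as 45, 23 and 25 T or NK cells in WT CD, WT HFD and KO HFD. In FAPs the number higher in WT HFD than in WT CD was 0, but 1 when gated or with all variable genes and 2 with states weighted alike. In macrophage-like cells it was 10, but 2 with all variable genes, and the number higher in KO HFD than in WT HFD was 1, but 3 when thinned or with all variable genes. Egr1 in T or NK cells turned to 0.19 in WT HFD against WT CD without doublets. The causes were not tested. Cell numbers limit the small classes, such as the 51 T or NK cells of WT HFD.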

Other observations

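Several classes had under 20 cells in at least 1 library and entered no comparison, though some held single immediate early transcripts above the levels of the larger classes. Neutrophil-like cells (13, 19 and 25 cells in WT CD, WT HFD and KO HFD; marked by S100a8 and S100a9) held 21956, 22230 and 23866 CPM of the 10 genes. Junb gave 6626, 7720 and 6765 CPM of these and Dusp1 3940, 3183 and 3538 CPM, both above every library of the larger classes. Mast cells (7, 10 and 9 cells; marked by Cpa3 and Mcpt4) held Jun at 6000, 5027 and 2932 CPM, with exact 95% intervals of 4532 to 7792, 4026 to 6201 and 2065 to 4042, on 56, 87 and 37 UMIs.

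In monocyte-like cells (17, 29 and 65 cells) Ier3 was 309.8 CPM in WT CD, 538.4 CPM in WT HFD and 1255 CPM in KO HFD, on 29, 79 and 477 UMIs, and the 10 genes summed to 7894, 9167 and 9168 CPM. Cycling cells (18, 50 and 56) held 6961, 8733 and 8606 CPM of the 10 genes, and mural cells, the pericytes and smooth muscle of vessels (15, 28 and 24), 8024, 9030 and 11773 CPM.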
